A study of Homo sapiens with 6 samples.

Results

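The genes described here are 10 components of the insulin and insulin-like growth factor (IGF) system, picked by symbol from the 32029 genes with a row in the count tables. They comprise the ligand IGF2, the receptors IGF1R, INSR and IGF2R, the receptor adaptors IRS1 and IRS2, the secreted IGF-binding proteins IGFBP2, IGFBP4 and IGFBP6, and the IGFBP-like protein IGFBPL1. They were followed in SW480, a human colorectal adenocarcinoma cell line labelled as wild type. RNA was taken 48 h after transfection with a negative-control siRNA (siNC, 3 libraries) or with an siRNA directed against ZEB1 (siZEB1, 3 libraries), and the study describes them as biological replicates. All come from 1 cell line, and the siRNA sequences were not used here.

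IGF1R and INSR are receptor tyrosine kinases of the same family. On binding IGF1, IGF2 or insulin they phosphorylate the docking proteins IRS1 and IRS2, which recruit phosphoinositide 3-kinase (PI3K) and so activate AKT and mTOR, while AKT keeps FOXO transcription factors out of the nucleus. IGF2R, the cation-independent mannose 6-phosphate receptor, carries lysosomal enzymes and takes up IGF2 for degradation without a kinase of its own. The IGFBPs hold IGFs outside the cell and can limit or prolong their access to receptors. ZEB1 is a zinc finger transcription factor that binds E-box sequences such as CACCTG and drives epithelial-mesenchymal transition, and overexpressed IGF2 is a known feature of a subset of colorectal tumours.

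The promoters of 6 of these genes are shown because ZEB1 is a DNA-binding factor and these members either hold its motif or had the largest differences between the groups. RefSeq windows on GRCh38.p14 were matched by symbol for 9 of the 10 members, with 11 windows in all, and the 250 bases before each start site were read. CACCTG was searched on both strands, and its letters are in capitals where found. IGF2R holds it at -184 to -179 and at -91 to -86 from the start site, IGFBP2 at -208 to -203 and IGFBP6 at -69 to -64, so that 3 of 9 members with a window had a match, compared with 20.6% of the 27305 genes that have such a window. The windows of INSR, IGFBP4 and IGFBPL1 do not hold these letters, nor do those of IGF1R, IRS1 and IRS2 or the other windows of IGFBP2. The windows lie at chr6:159968832-159969081 on the + strand (IGF2R), chr2:216632578-216632827 on the + strand (the first of 3 start sites of IGFBP2), chr12:53097417-53097666 on the + strand (IGFBP6), chr19:7294415-7294664 on the - strand (INSR), chr17:40443200-40443449 on the + strand (IGFBP4) and chr9:38424455-38424704 on the - strand (IGFBPL1). The start sites are those of RefSeq and can differ from the GENCODE gene ends given further on. GENCODE starts IGFBP6 at 53097436, so most of its window, with the match, lies within the gene in that annotation. Each is written 5′ to 3′ on the strand of its gene.
IGF2R: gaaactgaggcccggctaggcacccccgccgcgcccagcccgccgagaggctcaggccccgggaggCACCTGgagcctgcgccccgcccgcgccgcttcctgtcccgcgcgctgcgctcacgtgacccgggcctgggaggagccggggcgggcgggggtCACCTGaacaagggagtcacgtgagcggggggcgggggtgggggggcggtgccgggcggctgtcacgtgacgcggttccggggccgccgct
IGFBP2: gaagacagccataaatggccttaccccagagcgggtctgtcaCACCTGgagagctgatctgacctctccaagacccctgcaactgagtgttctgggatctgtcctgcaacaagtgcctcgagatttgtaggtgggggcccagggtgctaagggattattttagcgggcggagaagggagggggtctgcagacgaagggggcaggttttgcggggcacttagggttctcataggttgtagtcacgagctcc
IGFBP6: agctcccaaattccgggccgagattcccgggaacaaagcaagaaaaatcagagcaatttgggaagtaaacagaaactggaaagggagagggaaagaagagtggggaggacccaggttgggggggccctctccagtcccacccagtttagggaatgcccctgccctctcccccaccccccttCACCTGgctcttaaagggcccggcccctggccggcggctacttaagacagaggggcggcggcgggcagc
INSR: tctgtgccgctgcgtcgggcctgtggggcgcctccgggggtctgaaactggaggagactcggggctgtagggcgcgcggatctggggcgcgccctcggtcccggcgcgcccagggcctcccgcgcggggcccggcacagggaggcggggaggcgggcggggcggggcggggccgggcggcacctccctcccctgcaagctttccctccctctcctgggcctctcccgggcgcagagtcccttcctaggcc
IGFBP4: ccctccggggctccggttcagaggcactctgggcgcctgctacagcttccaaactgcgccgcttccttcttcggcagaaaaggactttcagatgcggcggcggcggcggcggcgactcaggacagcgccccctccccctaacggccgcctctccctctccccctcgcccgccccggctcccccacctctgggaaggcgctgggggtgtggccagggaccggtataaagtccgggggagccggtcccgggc
IGFBPL1: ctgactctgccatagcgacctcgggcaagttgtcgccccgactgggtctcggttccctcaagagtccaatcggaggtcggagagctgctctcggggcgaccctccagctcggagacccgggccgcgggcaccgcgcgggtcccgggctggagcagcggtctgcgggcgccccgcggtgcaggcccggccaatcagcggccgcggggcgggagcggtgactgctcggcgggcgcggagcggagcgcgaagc

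The libraries held between 19040636 and 22357633 counted reads. ZEB1 itself had 1247, 1276 and 908 reads with siNC and 136, 132 and 162 reads with siZEB1, so the knockdown was seen in every library. The chi-square of read counts over its degrees of freedom, which is near 1 for sampling noise alone, was 2.18 to 8.58 within groups and 29.9 to 35.5 between them, and replicate 3 of each group stood furthest from the other libraries of its group. In siNC replicate 3 the 2258 genes with the shortest exons in total ran 0.090 above and the 2257 with the longest 0.10 below the other siNC libraries (median log2 difference), and in siZEB1 replicate 3 the signs were opposite (-0.10 and 0.085). Members that rest on these libraries are therefore also given without both of them, an alternative added after the data were seen. The 7 of 8 colon epithelial markers with a row summed to 4814 to 5437 CPM with siNC and 5329 to 6002 CPM with siZEB1, and the 4 of 5 leukocyte markers to 0.611 to 0.882 and 0.477 to 0.676 CPM, where CPM is the read count divided by the TMM-adjusted library total. Fibroblast markers (5 of 6) summed to 13.4 to 14.9 CPM with siNC and 13.3 to 15.3 CPM with siZEB1, endothelial markers (2 of 4) to 2.02 to 2.72 and 1.54 to 2.60 CPM, and no listed marker with a row was at 0 in all libraries. Among the epithelial markers EPCAM went from a mean of 54.7 to 454 CPM, KRT19 from 72.3 to 223 CPM and VIL1 from 4.08 to 20.7 CPM. CDX2 went from 103 to 41.8 CPM. KRT8, at means of 3455 and 3534 CPM, KRT18 and KRT20 did not pass the test described below. The part of these markers in the IGF-system differences was not tested. In RNA from whole cultures, fewer cells of a type and less RNA per cell cannot be told apart.

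Of the 10 genes, 9 had enough reads to be tested, and 7 of these differed between siZEB1 and siNC by edgeR's quasi-likelihood test at a Benjamini-Hochberg adjusted p under 0.05. IGFBP4, IGFBPL1 and IRS2 were higher with siZEB1, INSR, IGFBP2, IRS1 and IGFBP6 were lower, and IGF1R and IGF2R did not pass. Of the 14996 genes tested, 40.2% passed the same rule, 19.0% higher and 21.2% lower. The groups did not overlap at 7 of the 9 tested members and at 49.5% of all tested genes. The members were chosen with earlier results of these data known, so their counts beside these shares are a description. IGFBPL1 had enough reads to be tested only through its siZEB1 libraries, so its place in these counts was not independent of its direction. The study's methods and its results section state different p limits for calling genes, and the stricter one, from the methods, was used here as another rule. With this rule, a fold above 1.5 and an unadjusted p under 0.001, IGFBP4 and IGFBPL1 remained higher and INSR remained lower, against 4.52% of all tested genes higher, 6.7% lower and 11.2% in either direction. Without replicate 3 of both groups, 2 members were higher and 4 were lower, with IRS2 and IGFBP6 no longer passing and IGF1R passing as lower.

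**Figure D1:**
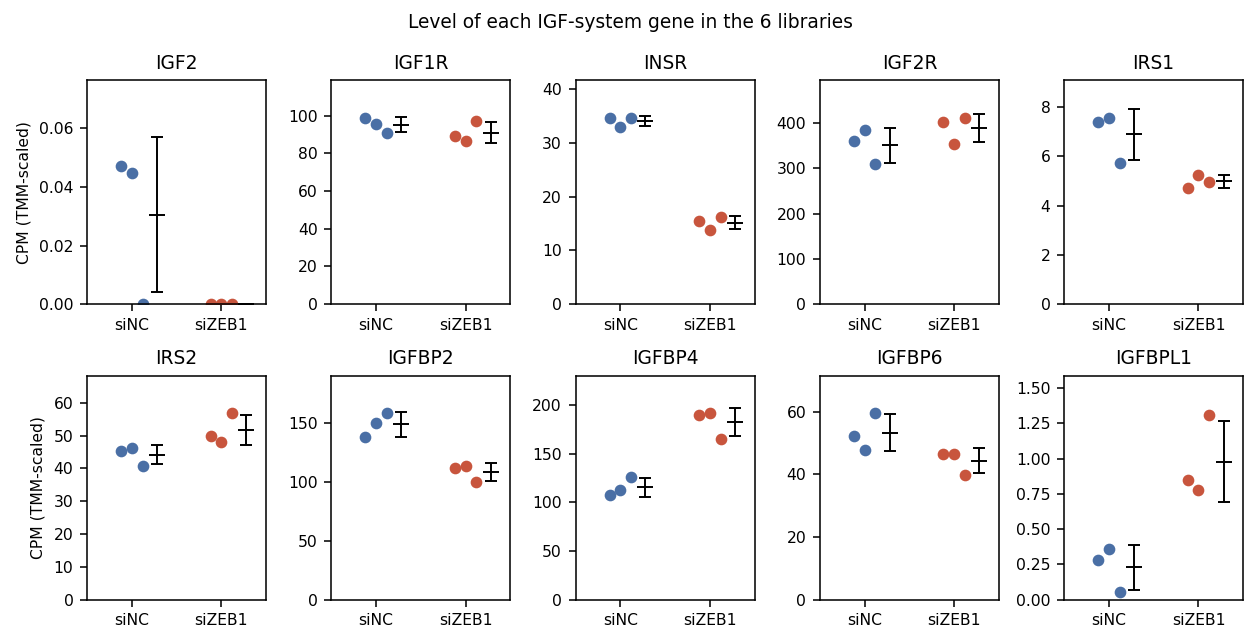
Level of each of the 10 genes (vertical axis, CPM after TMM scaling, from 0, with its own scale per gene) in the 3 siNC and 3 siZEB1 libraries (points, in the order of replicate number), with the group mean and SD as a bar beside them. INSR lies between 33.0 and 34.7 CPM with siNC and between 13.8 and 16.1 CPM with siZEB1, whereas the points of IGF1R and IGF2R overlap.

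Among the receptors, INSR fell, and neither its close relative IGF1R nor IGF2R passed the test. INSR (ENSG00000171105, chromosome 19 from 7112255 to 7294034, - strand), the receptor for insulin, had 737, 739 and 669 reads with siNC and 293, 265 and 309 reads with siZEB1. These are levels of 34.7, 33.0 and 34.7 CPM against 15.5, 13.8 and 16.1 CPM. The siNC libraries lay close together and every siZEB1 library was far below them. The means were 34.1 ± 0.971 and 15.1 ± 1.22 CPM (SD, n = 3 each), a 2.25-fold fall. Its log2 fold change was -1.17 (SE 0.086, edgeR adjusted p = 1.47e-08), and leaving out each library in turn kept it between -1.22 and -1.11. INSR had the smallest adjusted p of the tested members.

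IGF1R (ENSG00000140443, chromosome 15 from 98648539 to 98964530, + strand), the main signalling receptor for IGF1 and IGF2, stood at 99.0, 95.7 and 90.9 CPM with siNC and at 89.0, 86.6 and 97.2 CPM with siZEB1. The groups overlapped, since siZEB1 replicate 3 lay above 2 of the siNC libraries. Its log2 fold change was -0.066 (SE 0.068, edgeR adjusted p = 0.466). Without replicate 3 of both groups it was -0.15 (SE 0.061) and the adjusted p from edgeR was 0.0405, so the call depended on these libraries.

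IGF2R (ENSG00000197081, chromosome 6 from 159969099 to 160113507, + strand), the clearance receptor for IGF2, was the most heavily read of the 10 genes, with 5961 to 8626 reads per library. Its levels were 359.8, 385 and 309 CPM with siNC and 402, 353 and 412 CPM with siZEB1. The siNC libraries spread more widely than the difference between the groups, and siZEB1 replicate 2 fell within their range. The log2 fold change was 0.15 (SE 0.076, edgeR adjusted p = 0.135), and it was 0.023 without replicate 3 of both groups.

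Because each library gives reads for both kinase receptors, their balance could be read without any scaling between libraries. There were 2.86, 2.90 and 2.62 reads of IGF1R for each read of INSR with siNC, and 5.73, 6.28 and 6.02 with siZEB1. The mean ratio was 2.79 ± 0.151 with siNC and 6.01 ± 0.275 with siZEB1 (SD, n = 3 each), a difference of 1.11 on the log2 scale. The ratios did not overlap, and the two-sided exact permutation p was 0.1, the smallest that 3 libraries against 3 can give.

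INSR also carries a short sequence that was more frequent among the genes that fell. GAACACA was picked in an earlier scan of the 3′UTRs on these same fold changes, so its frequency is a description and no test. It was present in the 3′UTR of 22.6% of genes called lower, 7.47% of genes called higher and 9.82% of genes not called, among the 12295 tested genes with an annotated 3′UTR. A longer 3′UTR has more room for a short sequence, and lengths were not compared between these classes. INSR has 2 copies in 4801 bases of 3′UTR and IGF1R, which was not called, has 3 copies in 7088 bases. IGF2 has 6 copies, and the other 7 members have none. Among the pathway genes of the lists given further on, 5 of 23 called lower, 3 of 11 called higher and 2 of 34 not called held it. Its part in the fall of INSR was not tested. The INSR copies are printed because this is the member with the largest fall. They lie on the - strand of GRCh38 at chr19:7115257-7115285 (copy A) and chr19:7115079-7115107 (copy B), with the 7-mer in capitals.
INSR copy A: agctgctcaaaGAACACAgtgaactcatc
INSR copy B: ttcttgattaaGAACACAggtagacatga

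The adaptors moved in opposite directions, by small amounts. IRS1 (ENSG00000169047, chromosome 2 from 226731317 to 226799759, - strand), the docking protein first found as an insulin receptor substrate, had 157, 169 and 110 reads with siNC and 89, 101 and 95 with siZEB1. In CPM these were 7.38, 7.55 and 5.71 against 4.71, 5.25 and 4.96. The siNC replicate 3 library lay nearest to the siZEB1 libraries, and the groups did not overlap. IRS1 had a log2 fold change of -0.47 (SE 0.14, edgeR adjusted p = 0.0146). This call was lost when siNC replicate 1, siNC replicate 2 or siZEB1 replicate 1 was left out (edgeR adjusted p = 0.0509, 0.0735 and 0.0587), and the log2 fold change was -0.58 without replicate 3 of both groups.

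IRS2 (ENSG00000185950, chromosome 13 from 109752698 to 109786568, - strand), the other widely expressed docking protein, stood at 45.2, 46.4 and 40.9 CPM with siNC and at 50.0, 48.2 and 56.9 CPM with siZEB1. The lowest siZEB1 library was just above the highest siNC library. Its log2 fold change was 0.23 (SE 0.080, edgeR adjusted p = 0.0322). Leaving out siNC replicate 3, siZEB1 replicate 1 or siZEB1 replicate 3 ended the call, with edgeR adjusted p of 0.0875, 0.0577 and 0.158. Without replicate 3 of both groups the log2 fold change was 0.10 (edgeR adjusted p = 0.262). A gene on the opposite strand overlaps 1.41% of its exonic bases.

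Within a library there were 6.13, 6.14 and 7.16 reads of IRS2 for each read of IRS1 with siNC and 10.6, 9.18 and 11.5 with siZEB1. The mean ratio went from 6.48 ± 0.594 to 10.4 ± 1.15 (SD, n = 3 each), a log2 difference of 0.68 with no overlap. The two-sided exact permutation p was again 0.1, the smallest possible. The difference stayed between 0.61 and 0.77 when each library was left out in turn.

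**Figure D2:**
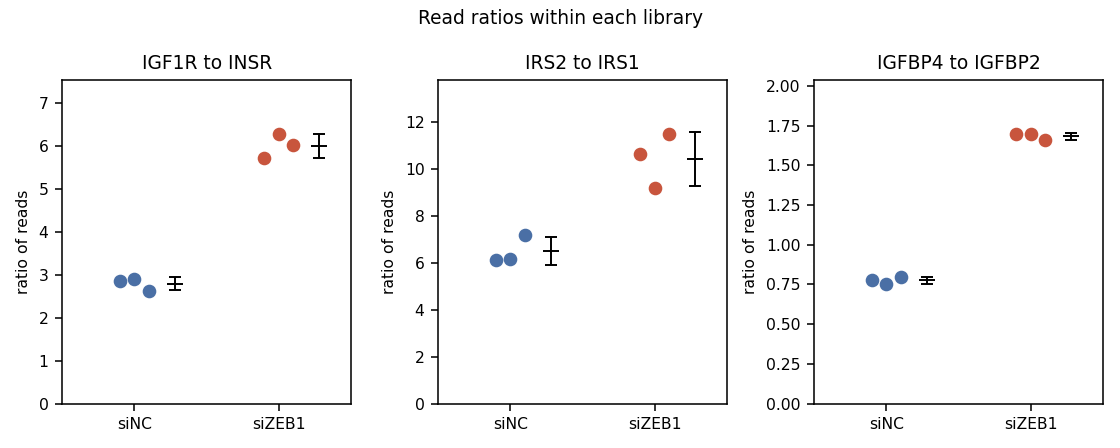
Reads of one gene per read of another within each library (vertical axes, ratio of raw reads, from 0) for IGF1R to INSR, IRS2 to IRS1 and IGFBP4 to IGFBP2. Points are the 3 siNC and 3 siZEB1 libraries in the order of replicate number, bars are mean and SD, and the groups are separate in each panel.

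The secreted binding proteins did not move together. IGFBP4 (ENSG00000141753, chromosome 17 from 40443461 to 40457731, + strand), a binding protein that inhibits IGF action and releases IGF when the protease PAPPA cuts it, stood at 108, 113 and 126 CPM with siNC and at 190.3, 192 and 166 CPM with siZEB1. All siZEB1 libraries exceeded all siNC libraries, and replicate 3 of each group was the one nearest to the other group. Means were 116 ± 9.53 CPM with siNC and 183 ± 14.7 CPM with siZEB1 (SD, n = 3 each), a 1.58-fold rise. On the log2 scale the change was 0.66 (SE 0.074, edgeR adjusted p = 1.99e-06). The log2 fold change was 0.80 without replicate 3 of both groups.

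IGFBP2 (ENSG00000115457, chromosome 2 from 216632828 to 216664436, + strand), a binding protein often abundant in tumours, stood at 138, 150.0 and 159 CPM with siNC and at 112, 113 and 99.95 CPM with siZEB1. The groups did not overlap, and siNC replicate 3 and siZEB1 replicate 3 were the extremes. The level fell to 0.729 of its siNC mean, with a log2 fold change of -0.46 (SE 0.071, edgeR adjusted p = 6.37e-05) and of -0.35 without replicate 3 of both groups. IGFBP6 (ENSG00000167779, chromosome 12 from 53097436 to 53102345, + strand), which prefers IGF2 over IGF1, stood at 52.3, 47.9 and 59.6 CPM with siNC and at 46.7, 46.6 and 39.9 CPM with siZEB1. The gap between the groups was narrow, and replicate 3 again held the highest and the lowest value. The log2 fold change was -0.26 (SE 0.088, edgeR adjusted p = 0.0255). It was lost when siNC replicate 3 or siZEB1 replicate 3 was left out (edgeR adjusted p = 0.0859 and 0.113), and was -0.10 without both (edgeR adjusted p = 0.280).

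The reads of IGFBP4 for each read of IGFBP2 went from 0.780, 0.752 and 0.795 with siNC to 1.69, 1.70 and 1.66 with siZEB1. This pair was chosen after its values were seen, so the ratio is a description without a test. It was the tightest of the 3 ratios within each group, with an SD of 0.0218 around 0.775 with siNC and of 0.0214 around 1.68 with siZEB1.

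IGFBPL1 (ENSG00000137142, chromosome 9 from 38408994 to 38424447, - strand), which shares the amino-terminal IGF-binding module of the IGFBPs, was rarely read. It had 6, 8 and 1 reads with siNC and 16, 15 and 25 reads with siZEB1. Every siZEB1 library had more reads than every siNC library, and the level went from 0.230 ± 0.159 to 0.978 ± 0.286 CPM (SD, n = 3 each). It had enough reads to be tested only through the siZEB1 libraries, where it was higher, so its test is a description. The log2 fold change was 2.01 (SE 0.48, edgeR adjusted p = 0.00274). It was 1.59 without siNC replicate 3, the library with 1 read, and 1.33 (edgeR adjusted p = 0.0375) without replicate 3 of both groups. The study counted this gene among putative tumour suppressors that rose, compared the expression of such genes by qRT-PCR with its RNA-seq, and picked it for promoter ChIP. Its direction here comes from that same RNA-seq and is not independent evidence. The study did not list the IGFBPL1 promoter among those significantly enriched.

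IGF2 (ENSG00000167244, chromosome 11 from 2129112 to 2149603, - strand), the ligand of the system, had 1, 1 and 0 reads with siNC and none in the siZEB1 libraries. It was below the filter on low counts and was not tested. A count of 0 allows up to 3 reads, or 0.134 to 0.159 CPM in these libraries, for counting error only. Of its exonic bases, 73.7% are shared with other annotated genes on the same strand, and whether the counting kept reads there is not given in the sources used here. Its level is therefore uncertain, and no difference was detectable at this depth.

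**Figure D3:**
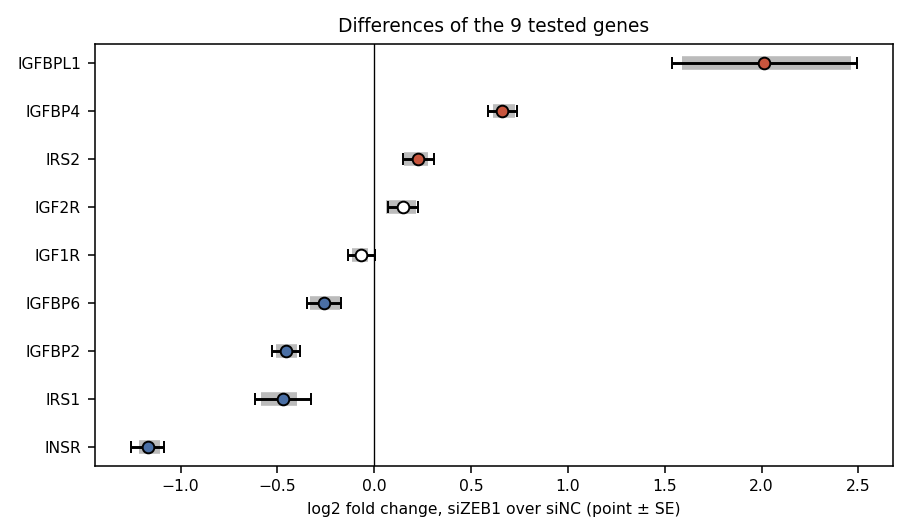
Log2 fold change of siZEB1 over siNC (horizontal axis) for the 9 tested genes, ordered by value. Points with bars are the edgeR estimate and its SE, grey bands span the 6 fits that leave out 1 library each, and filled points passed the test, red for higher and blue for lower. INSR at -1.17 and IGFBPL1 at 2.01 mark the ends.

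Levels between genes were compared per kilobase of annotated exon, since longer transcripts give more reads. With siNC the order was IGFBP4 (52.5 CPM per kilobase), IGFBP6 (39.6), IGFBP2 (31.2), IGF2R (19.7), IGF1R (6.83), IRS2 (5.43), INSR (3.26), IRS1 (0.691) and IGFBPL1 (0.211), with IGF2 last. No neighbours in this order overlapped between their siNC libraries. The binding proteins IGFBP4, IGFBP6 and IGFBP2 thus headed the list and were above every receptor. With siZEB1 the order kept IGFBP4 first (83.0 CPM per kilobase), while IGFBP2 (22.8) no longer differed from IGF2R (21.8) beyond the spread, nor IGF1R (6.52) from IRS2 (6.35). IGFBPL1 (0.895) stood above IRS1 (0.500), the reverse of siNC, and INSR was at 1.45. These lengths count every annotated exon and not the isoforms used in SW480, so the order is approximate.

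**Figure D4:**
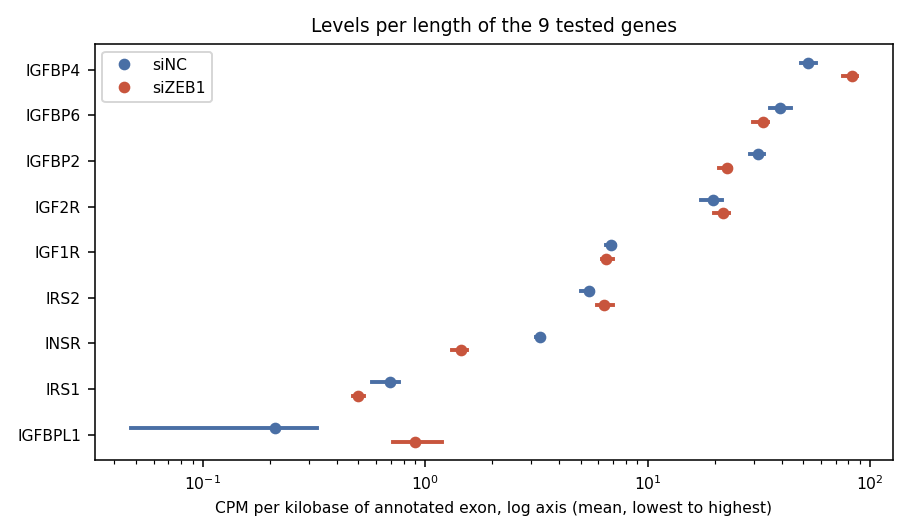
Level per length of the 9 tested genes (horizontal axis, CPM per kilobase of annotated exon, log scale), ordered by the siNC mean. Points are group means and lines run from the lowest to the highest of the 3 libraries. IGFBP4 leads in both groups, at 52.5 with siNC and 83.0 with siZEB1.

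The rest of the IGF ligands, receptors and binding proteins were almost unread in SW480. Of 9 listed genes, 7 had a row and only IGFBP7, which binds IGFs weakly, had enough reads to test. It had 80, 76 and 86 reads with siNC and 96, 99 and 100 with siZEB1, and the groups did not overlap. The log2 fold change was 0.42 (SE 0.15, edgeR adjusted p = 0.0367). Leaving out any library but siNC replicate 3 ended this call, with an adjusted p of up to 0.159. IGF1, the other main ligand, had 1 read in each of 2 libraries and none elsewhere. IGFBP1, IGFBP3 and IGFBP5 had at most 6 reads in a library, IGFALS, the partner of circulating IGF complexes, at most 7, and the insulin receptor-related receptor INSRR at most 11. INS and IRS4 were not analysed here.

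Genes that act around the binding proteins and the clearance receptor were also read, in lists too short for their counts to bear a conclusion. None of the 4 tested genes of IGFBP cleavage and receptor maturation passed edgeR's test, beside 40.2% of all tested genes that did. These were STC2, FURIN, PCSK5 and PCSK6, with a median log2 fold change of 0.027, against -0.0055 over all genes. Of them, 0 were at an unadjusted p under 0.05 in edgeR's test and 0 passed in DESeq2. PAPPA, the protease of IGFBP4, had 1 to 4 reads per library and was not tested. HTRA1 of the same list had 4, 5 and 10 reads with siNC and 3, 2 and 2 with siZEB1, and was not tested either. In mannose 6-phosphate sorting, the pathway that IGF2R serves, 1 of 4 genes was higher and none was lower, beside 19.0% and 21.2% of all tested genes. This was M6PR, the smaller mannose 6-phosphate receptor, with a log2 fold change of 0.18 (SE 0.056, edgeR adjusted p = 0.0181), which failed without siNC replicate 3, siZEB1 replicate 1 or siZEB1 replicate 2 (edgeR adjusted p = 0.0606, 0.0569 and 0.0580).

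Of the 3 IGF2 mRNA-binding proteins, which bind IGF2 and other transcripts, 2 were lower and none was higher, beside 21.2% and 19.0% of all tested genes. IGF2BP2 stood at 195 ± 2.13 CPM with siNC and 139 ± 6.91 CPM with siZEB1 (SD, n = 3 each). Its log2 fold change was -0.49 (SE 0.060, edgeR adjusted p = 5.3e-06). IGF2BP3 had a log2 fold change of -0.29 (SE 0.10, edgeR adjusted p = 0.0297), with overlapping groups because siNC replicate 3 lay low. Its call was lost without siNC replicate 1 or 2 or siZEB1 replicate 1 or 2, with adjusted p of up to 0.137, and its log2 fold change was -0.49 without replicate 3 of both groups. IGF2BP1, the most abundant at 514 CPM with siNC, did not pass (0.075, SE 0.052, edgeR adjusted p = 0.265).

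Among the proteins that act directly at the receptors, 2 of 15 tested genes were higher and 7 were lower, with a median log2 fold change of -0.24. Of all tested genes, 19.0% were higher and 21.2% lower, with a median of -0.0055. GRB10, an adaptor that binds INSR and IGF1R and inhibits them, had 1011, 1096 and 890 reads with siNC and 502, 449 and 495 with siZEB1. It fell by 0.91 on the log2 scale (SE 0.077, edgeR adjusted p = 7.93e-08). The cytokine-signalling suppressors SOCS3 and SOCS2 fell by 0.81 and 0.51 on the log2 scale, and the adaptor SH2B2 by 0.77. Of the other inhibitors in the list, SOCS1 (-0.17, edgeR adjusted p = 0.351) and the phosphatase PTPN1 (-0.13, edgeR adjusted p = 0.0612) did not pass. SH2B2, with 19 to 50 reads per library, lost its call without siNC replicate 2 or 3 or siZEB1 replicate 2 or 3 (edgeR adjusted p of up to 0.0887). The general adaptors SHC1 (-0.45) and GRB2 (-0.24) and the exchange factor SOS2 (-0.25) were the others called lower, and SH2B1 (0.42) and the phosphatase PTPN11 (0.32) were higher. SOS2 lost its call in 4 of the 6 fits that left out 1 library.

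Further down the pathway, 3 of 24 tested PI3K-AKT-mTOR genes were higher and 8 were lower, beside 19.0% and 21.2% of all tested genes. The median log2 fold change of the list was -0.016, against -0.0055 over all genes. INPP4B, a phosphatase that removes the products of PI3K, had a level of 16.9 ± 0.845 CPM with siNC and 6.32 ± 0.459 CPM with siZEB1 (SD, n = 3 each). It fell by 1.42 on the log2 scale (SE 0.11, edgeR adjusted p = 1.96e-08). The translation repressor EIF4EBP1 fell by 0.71, the kinase MTOR by 0.68 and its partner MLST8 by 0.54 on the log2 scale, each in every fit that left out 1 library. RPTOR (-0.46), TSC2 (-0.40), PIK3CD (-0.32) and AKT1 (-0.27) were also lower. PIK3R3 (0.30), PHLPP2 (0.26) and PHLPP1 (0.25) were higher, and these and PIK3CD each lost the call in 1 to 3 of the 6 fits that left out 1 library. The count of higher genes fell to 1 without siZEB1 replicate 2, without siZEB1 replicate 3 and without replicate 3 of both groups.

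Of the FOXO factors and their known targets, 4 of 18 were higher and 6 were lower, beside 19.0% and 21.2% of all tested genes, and the median log2 fold change was -0.13. TXNIP, an inhibitor of thioredoxin and of glucose uptake, stood at 40.7 ± 3.31 CPM with siNC and 89.9 ± 2.17 CPM with siZEB1, and the receptor ERBB3 at 4.98 ± 0.346 and 10.8 ± 0.342 CPM (SD, n = 3 each). Their log2 fold changes were 1.14 (SE 0.073) and 1.12 (SE 0.12), with edgeR adjusted p of 2.74e-09 and 1.03e-06. The growth-arrest genes GADD45A and CDKN1B, also FOXO targets, both fell by 0.63 on the log2 scale. FOXO1, FOXO3 and FOXO4 themselves were lower, with log2 fold changes of -0.53, -0.54 and -0.53, FOXO6 (-0.56) did not pass, and the targets BCL6 (0.43) and SOD2 (0.24) were higher while CITED2 (-0.31) was lower. SOD2 lost its call in 2 of the 6 fits that left out 1 library.

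**Figure D5:**
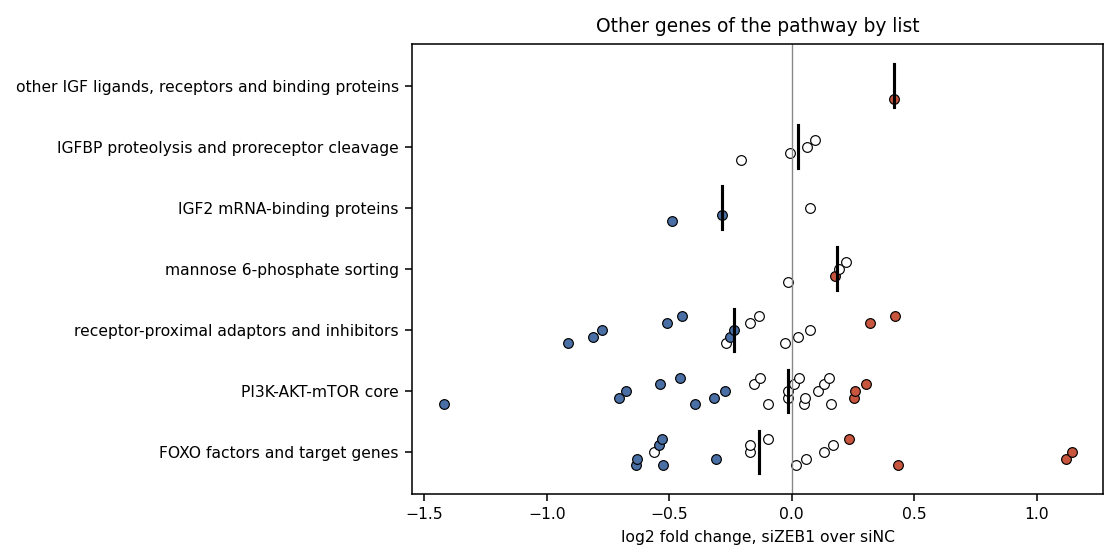
Log2 fold change of siZEB1 over siNC (horizontal axis) for the tested genes of the 7 pathway lists, 1 row per list. Each point is a gene, filled red where it passed the test as higher, filled blue where it passed as lower and open where it did not pass, and the vertical bar is the list's median. INPP4B at -1.42 and TXNIP at 1.14 are the outermost points.

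The genes whose pattern over the 6 libraries was most like that of INSR were KCNJ8, a potassium channel subunit, ETV3, an ETS-family repressor, and GYG2, a glycogenin that primes glycogen synthesis. Likeness was the root mean square distance between centred log2 CPM values over the 6 libraries, among genes of at least 1 CPM, and was 0.059, 0.061 and 0.064. KCNJ8 went from 9.83 ± 0.257 to 4.16 ± 0.172 CPM, ETV3 from 135 ± 5.77 to 64.7 ± 3.05 CPM and GYG2 from 32.2 ± 0.846 to 14.9 ± 0.719 CPM (SD, n = 3 each). The 6 libraries share the same pair of groups and scaling, so these distances are a description.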

How the data were processed

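SW480 cells were profiled by RNA-seq, with 3 siNC and 3 siZEB1 libraries grouped by their titles. The authors deposited 1 table of raw read counts per gene for each library, not normalized, and the tables list 32029 genes. The submitters' processing notes name Trimmomatic, HISAT2, SAMtools and featureCounts with the build hg38. Versions, annotation and the strand setting are not given in the sources used here, so reads from overlapping genes on opposite strands may have been combined. Depth of 19040636 to 22357633 reads makes genes near 1 CPM imprecise.

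Counts were filtered by filterByExpr, scaled by TMM and tested with edgeR 4.0.16 (quasi-likelihood, two-sided, no covariates, Benjamini-Hochberg over 14996 genes) in R 4.3.3. Read ratios were tested by exact permutation in Python 3.11.15 with numpy 2.4.6. Adjusted p under 0.05 counted as a call. Coordinates, exon lengths and 3′UTRs came from GENCODE 29 on GRCh38 (31059 genes matched by identifier) and promoters from RefSeq. The scripts were tested on simulated data. Alternatives were DESeq2 1.42.0, scaling by median-of-ratios or by library size alone, no filter, at least 10 counts in every library, a replicate block, each library left out in turn and the call rule of the study's methods, which is stricter than the one in its results section. The members and lists were chosen with earlier results of these data known. Named were all members and ZEB1, all genes of the lists of other IGF genes and of IGF2 mRNA-binding proteins, up to 4 called genes per other list with the largest change, and the 3 genes most like the member with the smallest adjusted p. The other pathway genes named, the epithelial markers given singly and the IGFBP4 to IGFBP2 ratio were chosen after their values were seen. Proteins and the study's ChIP and PCR results were not analysed here.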

Additional observations from a re-analysis of the deposited data

How the results depend on the processing

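No member, no called gene named by the rule and no read ratio changed direction under the alternatives run. Among list genes that were not called, some changed sign when 1 library was left out, such as FURIN (-0.055 to 0.035) and PCSK5 (-0.015 to 0.13). INSR, IGFBP4, IGFBP2 and IGFBPL1 passed at an adjusted p under 0.05 in every fit made of them. IGFBPL1 had no value with at least 10 counts in every library, since it reached that count only with siZEB1. The stricter rule, from the study's methods (fold above 1.5, unadjusted p under 0.001), left 1 member lower, and 678 genes higher and 1004 lower in all. Under it the receptor-proximal genes had 0 higher and 2 lower, the PI3K-AKT-mTOR genes 0 and 3, the FOXO genes 2 and 2, and the other IGF genes (higher), the IGF2 mRNA-binding proteins (lower) and the sorting genes (higher) 0 each. The other IGF genes also had 0 higher with DESeq2, with no filter and with the block. Leaving out each library in turn gave 0 to 1 for that list, 1 to 2 lower IGF2 mRNA-binding proteins, 0 to 2 higher sorting genes and 1 to 3 higher PI3K-AKT-mTOR genes. In the same fits the log2 fold change ranged from -0.33 to -0.18 for IGFBP6, from -0.12 to -0.032 for IGF1R, from -0.59 to -0.40 for IRS1 and from 0.15 to 0.28 for IRS2. Without replicate 3 of both groups there were 2 higher sorting genes and 1 higher PI3K-AKT-mTOR gene, and the log2 fold changes were -0.15 (IGF1R, now called), -0.10 (IGFBP6) and 0.10 (IRS2). Deviations from the group means had correlations of -0.33, -0.34 and -0.66 between same-numbered libraries. Replicate 3 of the groups deviated by exon length in opposite directions, so these values cannot show whether the libraries were paired. With the number as a replicate block, 2 members were higher and 3 lower, and IGFBP6 (-0.26, edgeR adjusted p = 0.0657) and IRS2 (0.23, edgeR adjusted p = 0.0947) were not called. The block left 1 IGF2 mRNA-binding protein lower, 0 sorting genes higher and 1 PI3K-AKT-mTOR gene higher. The cause of these changes was not tested. Depth limits IGF2 and IGFBPL1, which had at most 25 reads in a library.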
